A study of Mus musculus with 12 samples.

Results

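The Serpina family mRNAs described here are the 5 mouse alpha-1 antitrypsin copies Serpina1a, Serpina1b, Serpina1c, Serpina1d and Serpina1e, and Serpina6. Every peak of the deposited Argonaute (Ago) table that carried one of these 6 gene names was taken, with no choice by its values. This gave 54 peaks of 106382 and 6 genes of 12102. Serpina6 held 23 of the peaks and the Serpina1 copies held 31. Ago HITS-CLIP sequences the RNA that ultraviolet light crosslinks to Ago, the protein that carries microRNAs to their targets. It was run on fetal liver cells of C57BL/6J mice that lacked the miR-144/451 locus (genotype miR-144/451-/-, called KO) or were wild type (WT). An Ago antibody or a control IgG was used on cells of each genotype, which gave 4 groups of 3 libraries: KO Ago (libraries 3, 12 and 13), WT Ago (1, 9 and 10), KO IgG (4, 8 and 14) and WT IgG (2, 6 and 11). The labels name no Cre or cell type for the deletion, and they do not give the embryos' age or how many livers a library held. P-values measure only the spread between these libraries, which may be technical.

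Serpins are a family of proteins most of which trap and inactivate proteases. Alpha-1 antitrypsin is secreted by hepatocytes and inhibits neutrophil elastase, and mice carry several near-identical copies of its gene where humans carry a single one. Serpina6 encodes corticosteroid-binding globulin, a serpin that carries glucocorticoids in blood and does not inhibit proteases. Fetal liver is a blood-forming organ in which erythroid cells lie among hepatocytes, so these hepatocyte mRNAs were read out in a mixed tissue.

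All 6 genes lie on chromosome 12 on the minus strand (mm10). Serpina6 spans 103646630 to 103657218, Serpina1b 103728156 to 103738189, Serpina1d 103763587 to 103773633, Serpina1a 103853295 to 103863619, Serpina1c 103894926 to 103904950, and Serpina1e 103946931 to 103956897. The copies are already alike in their promoters. The RefSeq promoter tables (GRCm38.p6) hold the 5 Serpina1 promoters, and over 237 to 298 aligned bases the 10 pairs of them were 91.7% to 98.4% identical. The stretches below are shown because they let the copies be compared base by base. The capitals mark GTTAAT, part of a binding motif of HNF1, a hepatocyte transcription factor known to act at the human alpha-1 antitrypsin promoter.
Serpina1a: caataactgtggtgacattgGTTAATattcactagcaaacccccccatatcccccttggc
Serpina1b: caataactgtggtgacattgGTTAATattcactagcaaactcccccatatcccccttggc
Serpina1c: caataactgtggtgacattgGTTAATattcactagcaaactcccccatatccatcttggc
Serpina1d: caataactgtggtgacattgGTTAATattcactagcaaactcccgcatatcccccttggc
Serpina1e: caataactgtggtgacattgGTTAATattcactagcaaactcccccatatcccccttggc
They lie at chr12:103863601-103863660 for Serpina1a, chr12:103738176-103738235 for Serpina1b, chr12:103904938-103904997 for Serpina1c, chr12:103773610-103773669 for Serpina1d and chr12:103956936-103956995 for Serpina1e, all read on the minus strand. GTTAAT was found in 5 of 5 of these promoters, and 7.10% of all 32851 promoters in the table hold it on either strand. The match is a description of these letters only.

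The deposited table scores each peak for its best seed match to microRNAs, and 3 of those microRNAs are printed here because the results below refer to their matches. The capitals mark the seed, bases 2 to 8 of the mature RNA (RefSeq, GRCm38.p6).
miR-144-3p: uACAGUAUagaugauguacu
miR-451a: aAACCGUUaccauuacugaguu
miR-16-5p: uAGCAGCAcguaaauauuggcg
The first 2 come from the deleted locus on chromosome 11. The seeds of the 3 differ from each other. miR-122-5p, an abundant microRNA of hepatocytes, is named below without its sequence.

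Serpina6 was among the most heavily read mRNAs of the whole table. Its 23 peaks held 1945 Ago reads over 6 libraries, which ranked 27 of 12102 genes, and 155 IgG reads over 6 libraries. Per length, Serpina6 had 225 Ago reads per 100 nt of peak. The Serpina1 copies had 45.1 over their pooled peaks, an average over copies that ran from 39.5 in Serpina1a to 61.0 in Serpina1b. The placement of reads that fit several copies is not stated, so Serpina6 was not compared with the copies added up. The average read coverage of the whole gene, as the authors give it, was 6.17 for Serpina6, which ranked 56 of 12102. For the copies it was 0.273 in Serpina1a, 0.448 in Serpina1b, 0.322 in Serpina1c, 0.798 in Serpina1d and 0.371 in Serpina1e.

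The Serpina6 peaks covered the mRNA from end to end. By the deposited class, 17 lay in the coding sequence (CDS) and held 73.4% of the gene's Ago reads, 3 in the 3′ UTR held 16.6%, and 3 in the 5′ UTR held 9.97%. The peak with most reads lay in the CDS at 103646982 to 103647009, 10209 nt from the gene's start, and held 268 reads, or 13.8% of the gene's Ago reads. The second lay at 103646805 to 103646881 in the 3′ UTR with 243 reads, and the least read peak held 14. In plots of reads along the gene the peaks fall into clusters. The same peak positions are drawn for every group, so Ago and IgG panels share these clusters by construction.

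**Figure D1:**
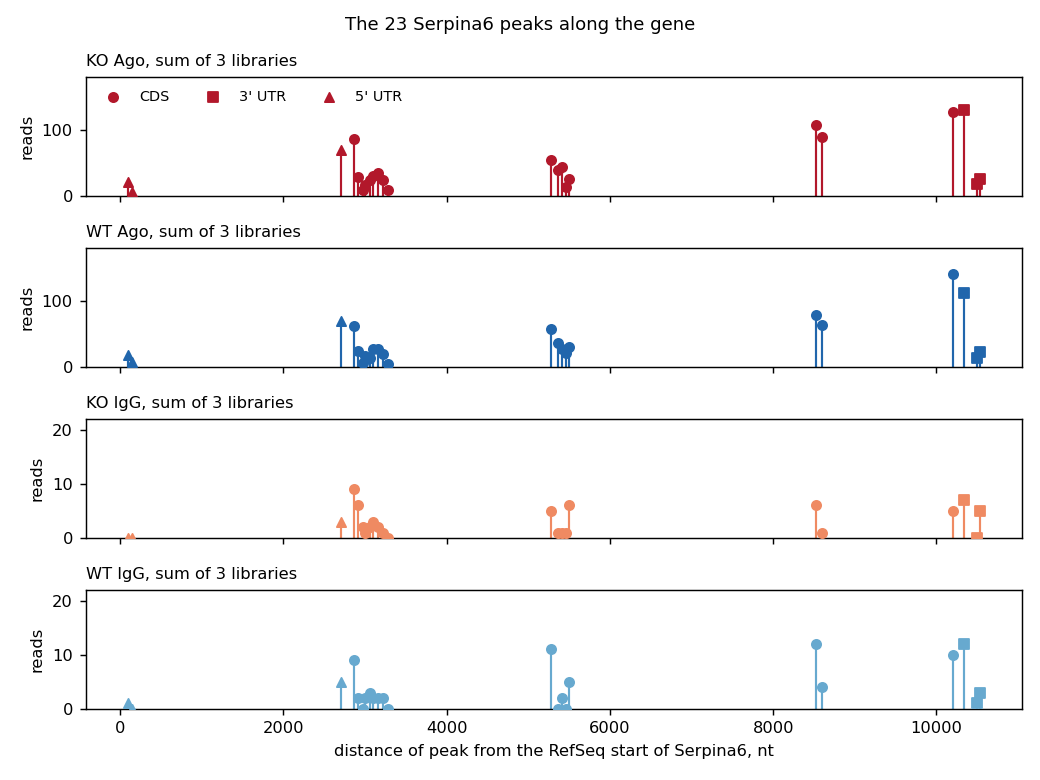
Reads in the 23 Serpina6 peaks (summed over the 3 libraries of each group) against distance from the RefSeq gene start in nt, with KO Ago, WT Ago, KO IgG and WT IgG from top to bottom and the marker shape giving the class. The Ago panels share a scale and the IgG panels another; the peak at 10209 nt holds 128 reads in KO Ago and 140 in WT Ago.

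The Serpina1 copies together held 459 Ago reads and 71 IgG reads in 31 rows. Serpina1b had most Ago reads at 125, then Serpina1e at 90, Serpina1c at 84, Serpina1d at 83 and Serpina1a at 77. Those 5 genes ranked 2780 to 3981 of 12102 by Ago reads. Of the 31 peaks, 23 lay in the CDS, 3 in the 3′ UTR, 4 were classed as upstream and 1 as intronic. The 4 "upstream" peaks lie at the low-coordinate side of minus-strand genes, which is the 3′ side. Of them, the Serpina1c peak at 103894822 and the Serpina1d peak at 103763477 lie beyond the RefSeq gene end.

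Part of the reads of the copies cannot be given to 1 gene. In 4 pairs of rows, the counts were identical in all 12 libraries. Serpina1a and Serpina1c shared 3 of these pairs, the CDS rows at 103854762 and 103896099, the CDS rows at 103857468 and 103898801, and the upstream rows at 103853456 and 103894822. The fourth pair joined the Serpina1a CDS row at 103853694 with the row named Serpina1b "intron" at 103817875 to 103817902, which lies outside RefSeq Serpina1b and inside the pseudogene Gm8893 (103817771 to 103822261). These 8 rows held 80.5% of the Ago reads of Serpina1a, 53.6% of those of Serpina1c, 13.6% of those of Serpina1b, and none of those of Serpina1d or Serpina1e. Over the copies they held 124 of 459 Ago reads, or 27.0%. Within each pair the peak width was also the same, at 31, 35, 40 and 28 nt in the order given. So were the deposited seed codes and the deposited ratio of IgG to Ago peak height. Whether the 2 rows of a pair hold the same reads was not tested. With each pair counted once, the 54 rows were 50.

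Identical counts were also found between other genes, whose relation to each other was not checked. Of all named peaks with 10 or more reads, 24.9% had the same counts as a row of another gene, against 8 of 47 member peaks (17.0%) that matched a member row. Member rows also matched 1 row each of Grb10, Ddb1 and Vps4b, genes on other chromosomes. The sources used here do not state how reads that fit several copies were placed, so values of a single Serpina1 copy are uncertain, and the sums below count identical rows once unless a gene is named.

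The 5 copies carried their peaks at like places in the gene. Grouping peaks of different copies less than 70 nt apart in distance from their gene's start gave 7 positions, a grouping chosen after the data were seen. Peaks of all 5 copies lay at 3 of these positions, 7685 to 7766 nt, 8764 to 8846 nt and 9816 to 9903 nt. At 8764 to 8846 nt, Ago reads were 44 in Serpina1b, 24 each in Serpina1a, Serpina1c and Serpina1d, and 9 in Serpina1e, where the Serpina1a and Serpina1c values are the same reads or the same counts. At 7685 to 7766 nt they were 34 in Serpina1b, 33 in Serpina1e, 27 in Serpina1c, 16 in Serpina1d and 9 in Serpina1a. The Serpina1b peak at 103729325 to 103729350 was the highest of the 31.

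**Figure D2:**
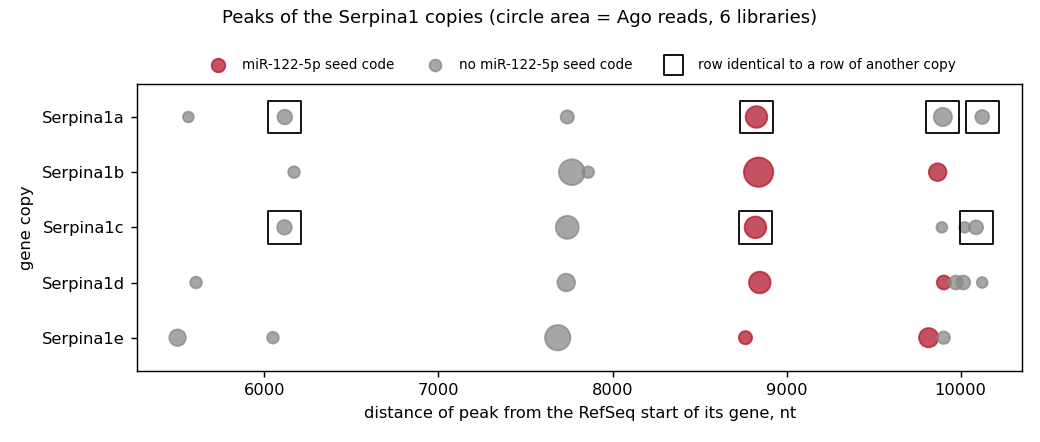
Peaks of the 5 Serpina1 copies against distance from the start of their own gene in nt, with circle area proportional to Ago reads summed over 6 libraries. 30 of the 31 peaks are drawn, the row inside the pseudogene being left out; red circles carry a miR-122-5p seed code, and squares frame rows identical to another row. Peaks stack at 7685 to 7766, 8764 to 8846 and 9816 to 9903 nt in all 5 copies.

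Seed codes for miR-122-5p were carried by 9 of the 54 peaks (16.7%) against 2.01% of all peaks. Of these 9, 8 were offset 6-mers and all 8 lay in Serpina1 copies. They fell at the 8764 to 8846 nt position in all 5 copies and at the 9816 to 9903 nt position in Serpina1b, Serpina1d and Serpina1e. Those are 2 positions that the near-identical copies share, so the 8 codes are not independent sites. The ninth was a 7-mer-m8 code in the Serpina6 CDS peak at 103648585 to 103648620.

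Codes for any microRNA of the deleted locus, counting both arms of miR-144, were present in 16 of the 54 peaks (29.6%) and in 40.7% of all peaks. For miR-144-3p, 10 peaks had a code (18.5%, against 26.3% of all peaks), of which 8 were matches with a mismatch and 2 were 7-mers. The 7-mers lay in the Serpina1b CDS peak at 103730379 to 103730423 and in the Serpina6 5′ UTR peak at 103657084 to 103657118. miR-451a had a code in 1 member peak, a mismatch in the Serpina6 3′ UTR at 103646633. For miR-16-5p, 3 peaks had a 7-mer (Serpina1b, Serpina1d and Serpina1e) and 1 Serpina6 peak, the most read one, had an offset 6-mer.

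At the 2 peaks with a miR-144-3p 7-mer, KO and WT libraries overlapped. The Serpina1b peak had 5, 6 and 7 reads in KO Ago libraries 3, 12 and 13, and 5, 4 and 7 reads in WT Ago libraries 1, 9 and 10. With reads scaled to 1000000 reads in peaks (RPM), the 18 reads of KO were 1.55 times the 16 reads of WT, with an exact 95% interval of 0.746 to 3.25. The Serpina6 5′ UTR peak had 5, 14 and 2 reads in KO Ago libraries, and 4, 10 and 5 in WT Ago libraries. That ratio was 1.52 with an interval of 0.779 to 2.99. Both intervals include 1, and they cover counting error only, as all intervals here do. Neither peak passed the filter on low counts. With no filter, edgeR called 0 of the 54 member peaks as different, and a difference was not detectable at this depth.

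The libraries differed in depth and in their hepatocyte share. Reads in peaks were 147969 to 341061 in KO Ago, 202876 to 452157 in WT Ago, 24622 to 42916 in KO IgG and 25985 to 42399 in WT IgG. Of 17 hepatocyte markers, 16 had peaks (Fetub did not), and they took 1.22% to 2.42% of peak reads in KO Ago, 0.663% to 1.97% in WT Ago, 1.89% to 2.75% in KO IgG and 1.70% to 2.52% in WT IgG. KO Ago library 13 and WT Ago library 10 stood above the others of their group at 2.42% and 1.97%. Of 16 erythroid markers, 10 had peaks, at 0.777% to 1.02% in KO Ago and 1.14% to 1.41% in WT Ago, while the globins Hba-a1, Hba-a2, Hbb-bt and Hbb-bs and also Epb42 and Ahsp had none. In these bulk samples, fewer cells of a type and less RNA per cell cannot be told apart.

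Serpina6 had 1338, 1583 and 1602 RPM in KO Ago libraries 3, 12 and 13, and 705, 933 and 1351 in WT Ago libraries 1, 9 and 10. The KO libraries lie above 2 of the WT libraries, and the groups overlap because WT library 10 stands slightly above KO library 3. In IgG libraries it had 839, 519 and 650 in KO (4, 8 and 14), and 1027, 708 and 731 in WT (2, 6 and 11). The WT IgG libraries thus lie within the range of the WT Ago libraries, while KO IgG lies below all 3 KO Ago libraries.

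The Serpina1 copies, summed with identical rows counted once, had 231, 240 and 581 RPM in KO Ago, and 137, 104 and 473 in WT Ago. In each Ago group 1 library stood far above the others, KO library 13 and WT library 10, the same libraries that were high in hepatocyte markers. In IgG libraries the sum was 280, 173 and 244 in KO, and 395, 354 and 231 in WT. Ago and IgG libraries overlap in both genotypes.

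**Figure D3:**
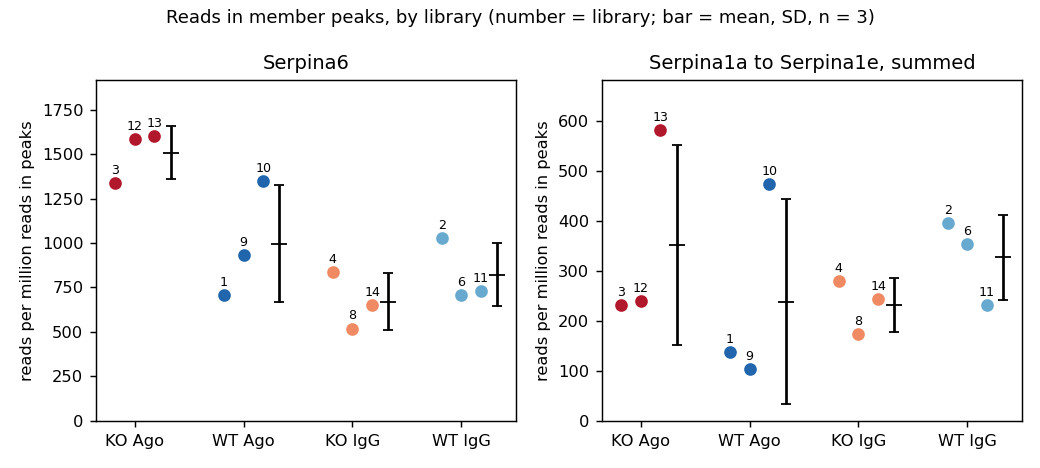
Reads in RPM, scaled by all reads in peaks, for Serpina6 (left panel) and for the 5 Serpina1 copies summed with identical rows once (right panel), 1 point per library with its number, and the mean with SD (n = 3) in black. KO Ago library 13 (581) and WT Ago library 10 (473) stand above the other Ago libraries for the Serpina1 copies, and for Serpina6 KO Ago averages 1508 and WT Ago 996.

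In the comparison of genotypes, reads of all 6 genes were higher in KO than in WT Ago libraries by value, and no gene passed the test. Serpina6 averaged 2080 ± 177 CPM of the tested reads after TMM scaling in KO Ago and 1423 ± 470 CPM in WT Ago (SD, n = 3 each). Its log2 difference was 0.55 ± 0.21 (SE), with an adjusted p of 0.141 (edgeR quasi-likelihood test, Benjamini-Hochberg over 4441 genes). The Serpina1 copies had log2 differences of 0.44 to 0.65, with SE of 0.48 to 0.75 and adjusted p of 0.502 to 0.677. Thus 0 of 6 members were called, against 5.94% of all genes tested, and Serpina6 was the 1 member with an unadjusted p under 0.05, which 21.4% of all genes tested had. DESeq2 and limma-voom also called 0 of 6. The median of the members was 0.58 and that of all genes tested was 0.03.

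The calls depend on WT Ago library 10. Without it, edgeR called 2 of 6 genes as higher in KO, Serpina6 at a log2 difference of 0.82 (adjusted p = 0.0155) and Serpina1e at 2.20 (adjusted p = 0.0491), with a median of 1.29. In that fit 87 of all 5296 genes tested were called as higher in KO and 319 as lower. Without KO Ago library 13, Serpina1e lay at -0.26 and 0 of 6 were called, with a median of 0.15. Without WT library 9 the median was 0.12, with Serpina1e at 0.02 and Serpina1d at 0.05, and without WT library 1 it was 0.39, with 0 of 6 called in both fits. With WT library 10 and KO library 13 left out together the median was 0.87, and 0 of 6 were called. Serpina1e had 26 of its 50 KO Ago reads in library 13, and 28 of its 40 WT Ago reads in library 10.

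Peak by peak, 10 of the 54 passed the filter, all of them in Serpina6, and these are the peaks that many reads let through. They had log2 differences of 0.04 to 0.87, all above 0, with a median of 0.52 against 0.09 for all 2425 peaks tested. The median rests on WT library 1 and KO library 12: without WT library 1 it was 0.05, with 7 of 10 peaks above 0, and without KO library 12 it was 0.23, with 8 of 9 above 0. None of the 10 was called (adjusted p 0.179 to 0.947 in edgeR), where 19.1% of all peaks tested were, most of them lower in KO. An unadjusted p under 0.05 was reached by 1 of the 10 in edgeR, against 26.4% of all peaks tested, by 0 in DESeq2 and by 3 in limma-voom, and DESeq2 and limma-voom called 0 as well.

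The largest differences lay in CDS peaks. The peak at 103651782 to 103651804 had 10, 23 and 11 reads in KO Ago libraries 3, 12 and 13, and 4, 14 and 10 in WT Ago libraries 1, 9 and 10, a log2 difference of 0.87 ± 0.41 (SE; adjusted p = 0.189, edgeR). The peak at 103654324 to 103654350 had 22, 35 and 29 reads in KO, and 13, 29 and 20 in WT, a log2 difference of 0.75 ± 0.35 (adjusted p = 0.190, edgeR). Both differences are about as large as 2 of their own standard errors, and neither passed the test. The peak with the miR-122-5p 7-mer, at 103648585, had 23, 46 and 21 reads in KO, and 13, 31 and 20 in WT. Its levels averaged 785 ± 95.1 CPM of the tested reads in KO and 490 ± 171 CPM in WT (SD, n = 3 each), a log2 difference of 0.71 ± 0.33 (SE; adjusted p = 0.179, edgeR). It was the peak with the 1 unadjusted p under 0.05.

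The most read Serpina6 peak differed least. At 103646982 it had 32, 64 and 32 reads in KO Ago libraries, and 39, 55 and 46 in WT Ago libraries. The scaled levels were 1127 ± 153 in KO and 1113 ± 347 in WT (SD, n = 3 each), a log2 difference of 0.04 ± 0.31 (SE; adjusted p = 0.947, edgeR). In the 3′ UTR, the peak at 103646805 had 33, 73 and 25 reads in KO, and 22, 56 and 34 in WT, a log2 difference of 0.41 ± 0.33. The 5′ UTR peak at 103654453 to 103654507 lay at 0.19 ± 0.33, with 15, 38 and 17 reads in KO, and 21, 26 and 22 in WT. KO and WT libraries overlap at all 3 peaks.

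The other tested CDS peaks had log2 differences of 0.11 to 0.63. At 103648636 to 103648691 the log2 difference was 0.63 ± 0.32 with 107 reads in KO and 79 in WT, and at 103654009 to 103654061 it was 0.63 ± 0.47 with 35 and 27 reads. At 103651824 to 103651853 it was 0.33 ± 0.40 with 40 reads in KO and 37 in WT, and at 103651902 to 103651933 it was 0.11 ± 0.39 with 55 and 58 reads.

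**Figure D4:**
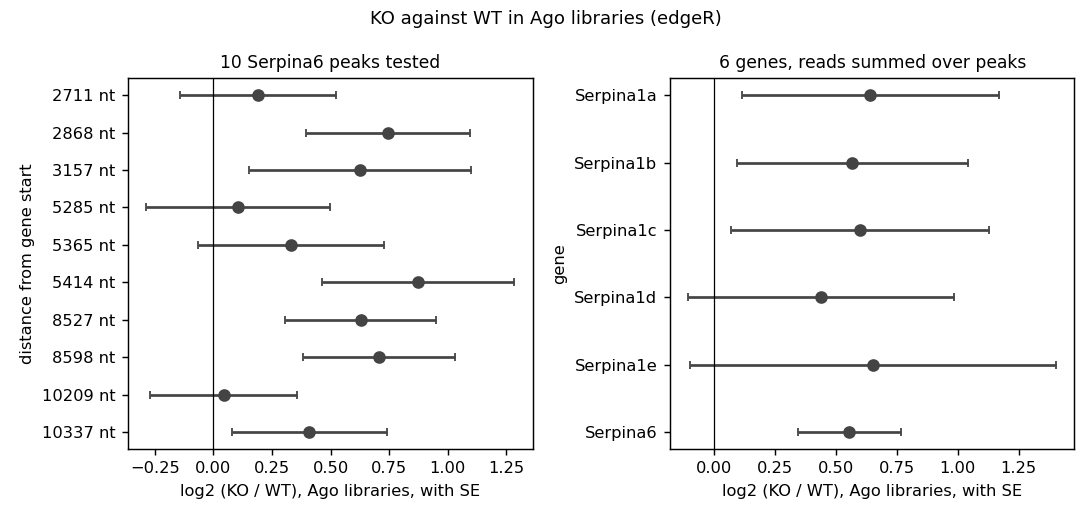
Log2 of KO over WT in Ago libraries with its SE (edgeR, 3 libraries per group) for the 10 Serpina6 peaks tested, labelled by distance from the gene start (left panel), and for the 6 genes (right panel). All points lie to the right of 0, from 0.04 to 0.87 for peaks and 0.44 to 0.65 for genes, and none passed the adjusted threshold.

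The 44 peaks that failed the filter held few reads. With no filter, edgeR called 0 of the 54 as different, with 39 above 0 and a median log2 difference of 0.38. Among all 106381 peaks of that fit, 44.4% lay above 0, with a median of -0.17. The counts that follow use RPM, without TMM. Counting all 54, 47 had a higher RPM in KO and 7 in WT, with a median ratio of 1.65, and with identical rows once these were 44 and 6 of 50. Among all 106381 peaks with an Ago read, 55.4% had a higher RPM in KO, with a median ratio of 1.10. Peaks of 1 mRNA share its level in each library, so these are not counts of independent peaks. Interval width also depends on a peak's reads, which were not matched between the members and all peaks. Exact 95% intervals lay above 1 for 8 of the 54, of which 7 were in Serpina6, and below 1 for 0, against 4.58% and 8.43% of all peaks. The 1 such Serpina1 peak was in Serpina1e at 103947038 to 103947081, with 1, 4 and 8 reads in KO Ago libraries 3, 12 and 13, and 1, 1 and 4 in WT Ago libraries 1, 9 and 10. Its ratio of 2.98 had an interval of 1.06 to 9.57. The most read Serpina1 peak, Serpina1b at 103729325, had 6, 6 and 12 reads in KO, and 8, 4 and 8 in WT, a ratio of 1.65 with an interval of 0.875 to 3.15. The top rows of the other copies gave ratios of 1.10 in Serpina1c (103897179), 1.65 in Serpina1e (103949162), 1.38 in Serpina1d (103764762) and 0.983 in Serpina1a (103854762).

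The authors' own comparison kept 4 of the 54 peaks (7.41%), 1 in Serpina6 and 3 in Serpina1 copies. Of all 84193 peaks with a gene, 6.38% met its 3 criteria. All 5373 peaks with a gene in their table had a height of 3 or more, a density above 5 relative to the gene's background, and IgG at less than 0.2 of Ago. Of the 23 Serpina6 peaks, 21 met the height and 19 the IgG ratio, and 1 met the density. Of the 31 Serpina1 peaks, 6 met the height, 13 the IgG ratio and 12 the density. Among all peaks with a gene, 15.6% met the height, 77.0% the IgG ratio and 29.1% the density. In the authors' deposited table, the Serpina6 peak at 103646982 had a log2 difference of KO over WT of -0.34 with a false discovery rate of 0.393. In the same table the Serpina1b peak at 103729325 had 0.06 and 0.957, and the identical Serpina1a and Serpina1c rows had -0.44 and 0.671.

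Against IgG, Serpina6 and the Serpina1 copies differed by value. The peaks were called on Ago libraries, which can favour Ago, and the scaling used reads in these same peaks. The size and direction of such a bias were not tested. Serpina6 had 2.18 times the RPM in KO Ago as against KO IgG (1043 and 67 reads; exact 95% interval 1.70 to 2.84) and 1.15 times in WT Ago as against WT IgG (902 and 88 reads; 0.924 to 1.45). The Serpina1 copies, identical rows once, had 1.30 times the RPM in KO Ago as against KO IgG (214 and 23 reads; 0.847 to 2.10) and 0.571 times in WT Ago as against WT IgG (183 and 36 reads; 0.398 to 0.841). For the copies in WT, the RPM was lower in Ago than in IgG beyond counting error.

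The tests per gene gave 1 call. In WT, 3 members passed the filter, and 1 of the 3 was called, against 15% of all genes tested that were called and 13% that were called as lower in Ago. It was Serpina1c, which was lower in Ago than in IgG with a log2 difference of -2.25 ± 0.67 (SE; adjusted p = 0.0111, edgeR). Its reads were 9, 10 and 19 in WT Ago, and 14 summed over WT IgG, of which 1 to 7 fell in each library. In RPM it was highest in WT IgG libraries 2 and 6 (184 and 142), followed by WT Ago library 10 (93.7). The filter asks for its level in at least 3 libraries, so IgG libraries had a part in letting Serpina1c through. That partly sets the direction, so the call supports nothing alone. DESeq2 did not call Serpina1c (adjusted p = 0.0664), nor did edgeR with no filter (0.102), without WT IgG library 2 (0.133) or without library 6 (0.137), and it no longer passed the filter when rows identical to another gene's were left out. Serpina1b lay at -1.18 ± 0.68 (adjusted p = 0.296) and Serpina6 at -0.44 ± 0.33 (adjusted p = 0.436). The Serpina6 value turned to 0.27 with library sizes over all peaks and no TMM, and to 0.31 with no filter.

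In KO, Serpina6 was the 1 member tested against IgG. Its log2 difference was 0.46 ± 0.33 (SE; adjusted p = 0.410, edgeR), so 0 of 1 were called, against 12.6% of all genes tested. It was called as higher in Ago with library sizes over all peaks and no TMM (1.15, adjusted p = 0.0105) and with no filter (1.06, adjusted p = 0.0458). Its unadjusted p was under 0.05 in DESeq2 and not in edgeR or limma-voom, and none of these called it.

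Of the Serpina6 peaks, 4 were tested against IgG in WT and 5 in KO, and each of these was called as higher in Ago. The filter asks for a level worth 10 reads in a library of median size, in at least 3 libraries. That level was reached in all 3 Ago libraries by 1 of the 4 peaks in WT and by 4 of the 5 in KO, and the others reached it in Ago and IgG libraries together. For peaks that passed through their Ago libraries the direction was close to fixed, so the counts of calls support nothing. In WT the log2 differences were 2.95 ± 0.54 at 103646982, 2.32 ± 0.64 at 103646805, 1.82 ± 0.54 at 103648636 and 1.53 ± 0.52 at 103651902 (SE; adjusted p 5.1e-04 to 0.0165, edgeR). In KO they were 4.53 ± 0.70, 4.03 ± 0.67 and 4.03 ± 0.84 at the first 3 of these, 5.98 ± 0.77 at the miR-122-5p peak (103648585) and 3.17 ± 0.64 at 103654324 (adjusted p 7.5e-04 to 0.00244, edgeR). Of all peaks tested, 73.8% were called in WT and 63.3% in KO, and those called as higher in Ago were 35.9% in WT and 40% in KO.

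Single IgG libraries move these values. Without WT IgG library 11 the peak at 103646805 lay at 1.18 and the peak at 103648636 at 0.82, and without library 6 they lay at 1.33 and 0.96, none of them called. The peak at 103651902 was not called without WT IgG library 2 (1.18), 6 (0.71) or 11 (0.75), and the peak at 103646982 lay at 1.88 without library 11 and was called. In KO, the peak at 103648636 lay at 7.72 without IgG library 4 and at 2.22 without library 8, and the peak at 103654324 lay at 1.42 without library 8 and was not called.

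These peak values rest on the scaling. Few peaks have IgG reads, so 894 peaks were tested in WT and 645 in KO, and the scaling was taken from them. With library sizes over all peaks and no TMM, an alternative chosen after the data were seen, the median of all tested peaks was -2.38 in WT, against -0.14 with TMM on the tested peaks, and -2.86 in KO, against -0.17. Then 0 of 4 Serpina6 peaks were called in WT, at log2 differences of -0.69 to 0.77, and 2 of 5 in KO, with a median of 1.30. Of all peaks in those fits, 57 of 894 were called as higher in Ago and 552 as lower in WT, and 28 of 645 as higher and 427 as lower in KO. Under the main scaling, with TMM on the tested peaks, 7 Serpina6 peaks were tested without WT IgG library 6. Of these, 2 were called, where 893 of all 2878 peaks were called as higher in Ago and 413 as lower. The raw reads behind the highest value, at 103648585 in KO, were 23, 46 and 21 in Ago libraries, and 1, 0 and 0 in IgG libraries.

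In the IgG libraries alone, no genotype difference of Serpina6 passed the test. It had 36, 15 and 16 reads in KO IgG libraries 4, 8 and 14, and 39, 30 and 19 in WT IgG libraries 2, 6 and 11, a log2 difference of -0.30 ± 0.37 (SE; adjusted p = 0.981, edgeR). It was the 1 member tested, 0 were called, and 0% of the 251 genes tested were called in edgeR, DESeq2 or limma-voom, with 2 genes at an unadjusted p under 0.05 in edgeR. The interaction asks whether the difference of genotypes in Ago libraries differs from that in IgG libraries. It was 0.82 ± 0.45 for Serpina6, 1.72 ± 1.09 for Serpina1a, 0.61 ± 0.97 for Serpina1b and 2.21 ± 1.09 for Serpina1c (log2, SE; adjusted p 0.911 to 0.975, edgeR). None of these 4 was called, nor any of 2654 genes (0%), with 121 at an unadjusted p under 0.05, Serpina1c among them, and DESeq2 and limma-voom called 0 too.

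Set against the hepatocyte markers of the same library, the genotypes lay within their spread. Per 100 reads in the 16 hepatocyte genes, Serpina6 had 10.9, 11.6 and 6.62 reads in KO Ago libraries 3, 12 and 13, and 10.6, 12.0 and 6.85 in WT Ago libraries 1, 9 and 10. That is 9.72 ± 2.70 in KO and 9.84 ± 2.69 in WT (SD, n = 3 each). The Serpina1 copies had 2.02 ± 0.34 in KO Ago and 1.94 ± 0.54 in WT Ago. By this measure Serpina6 was higher in Ago than in IgG libraries with no overlap in either genotype, at 3.02 ± 1.30 in KO IgG and 4.14 ± 1.69 in WT IgG (highest values 4.44 and 6.06). Its reads and the hepatocyte reads both come from peaks called on Ago libraries, and how this bears on the measure was not tested. The copies had 1.05 ± 0.43 in KO IgG and 1.66 ± 0.71 in WT IgG. This measure was chosen after the data were seen and carries no test, since with 3 libraries a group no exact permutation test could pass the threshold. The part of the hepatocyte share in the KO against WT values was not tested.

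**Figure D5:**
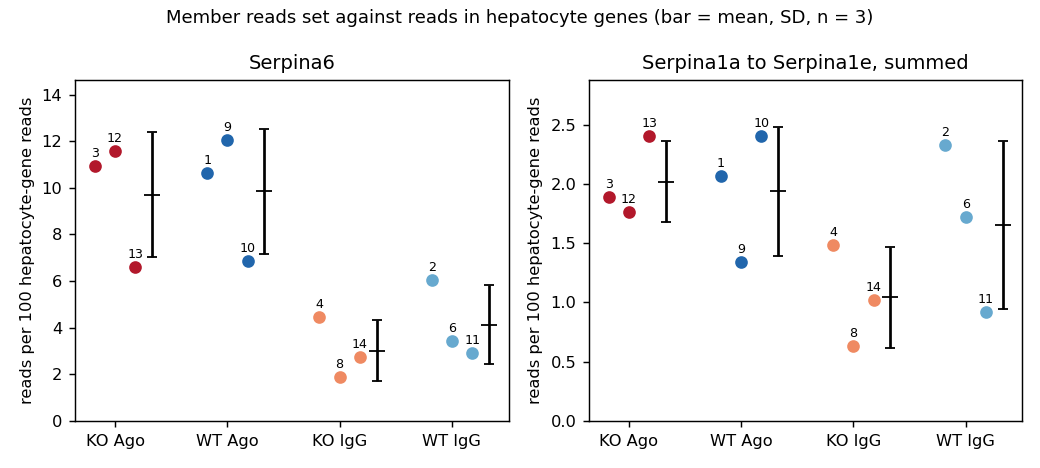
Reads of Serpina6 (left panel) and of the Serpina1 copies (right panel) per 100 reads in 16 hepatocyte genes, 1 point per library with its number, and the mean with SD (n = 3) in black. KO Ago and WT Ago average 9.72 and 9.84 for Serpina6, and in that panel every Ago library lies above every IgG library of its genotype.

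Other hepatocyte genes had values of like size. The 14 hepatocyte markers tested each had a log2 difference of KO over WT in Ago libraries above 0, with a median of 0.52, and 0 were called by edgeR (1 at an unadjusted p under 0.05). Albumin, Alb, lay at 0.43 ± 0.38 and alpha-fetoprotein, Afp, at 0.61 ± 0.35 (SE). Of all 4441 genes tested, 52.5% lay above 0. Most markers of other non-erythroid cell types also lay above 0 by value, with 0 called: macrophage markers in 3 of 3 (median 0.44), granulocyte markers in 6 of 8 (0.18), the 1 megakaryocyte marker tested at 0.39 and the 1 progenitor marker at 0.21. The macrophage values were 0.002 ± 0.23 in Lyz2, the most read, 0.44 ± 0.37 in Vcam1 and 0.63 ± 0.46 in C1qc. The 3 most read granulocyte markers lay at 0.08 ± 0.18 (Mpo), -0.01 ± 0.24 (Ltf) and 0.29 ± 0.21 (S100a9). The median of all genes tested was 0.03. Of 10 erythroid markers tested, 1 lay above 0, with a median of -0.49. An unadjusted p under 0.05 in edgeR was reached by 6 of the 10, against 21.4% of all genes tested. As lower in KO, 2 of the 10 were called, against 235 of all 4441 genes tested. They were the transferrin receptor Tfrc (-1.07 ± 0.16, adjusted p = 0.00150, edgeR) and the erythropoietin receptor Epor (-1.16 ± 0.21, adjusted p = 0.00499, edgeR).

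Other serpins and genes tied to the members' function gave no call. Of 15 other liver serpins, 6 had peaks and 4 were tested; 0 were called, 0 had an unadjusted p under 0.05, and the median was 0.50. Serpinf2, which encodes alpha-2-antiplasmin, lay at 0.47 ± 0.34, antithrombin Serpinc1 at 0.38 ± 0.38 and heparin cofactor II Serpind1 at 0.69 ± 0.41 (log2, SE). Of 9 serpins of other kinds, 4 had peaks and 1 was tested, Serpinb1a at -0.11 ± 0.41. Of 3 proteases that alpha-1 antitrypsin or its relatives inhibit, 2 were tested and 0 called; neutrophil elastase, Elane, lay at 0.84 ± 0.39 and proteinase 3, Prtn3, at 0.17 ± 0.23. Of 16 genes for folding and secretion of alpha-1 antitrypsin, 14 were tested and 0 called. An unadjusted p under 0.05 in edgeR was reached by 4 of the 14, against 21.4% of all genes tested. The log2 differences of the 14 ran from -1.56 to 0.74, with a median of 0.16 and 8 above 0. Among them the chaperone calnexin, Canx, lay at 0.02 ± 0.20, Hspa5 at -0.03 ± 0.22 and Hsp90b1 at 0.55 ± 0.24. Of 6 genes around glucocorticoid signalling, 4 were tested and 0 called, and the glucocorticoid receptor Nr3c1 lay at -0.33 ± 0.23. The hepatocyte factors Cebpa (0.53 ± 0.40) and Hnf4a (0.72 ± 0.52) were not called either.

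Over the 12 libraries, the genes whose log2 levels ran most like the sum of the Serpina1 copies were hepatocyte or metabolic genes. Among 2650 genes, fibrinogen beta, Fgb, had a Pearson correlation of 0.91 with that sum, the fatty acid oxidation enzyme Hadh 0.87, the sterol synthesis enzyme Hmgcs1 0.85, plasminogen, Plg, 0.83 and apolipoprotein M, Apom, 0.83. Serpina6 had 0.63 and ranked 56. These are descriptions over libraries that share antibody, depth and hepatocyte share.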

How the data were processed

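Ago HITS-CLIP and IgG libraries of fetal liver were read from the authors' deposited peak table, grouped by the labels. The submitters' processing notes name mm10 as the build and cutadapt, bedtools, STAR and limma as tools, without versions. Per the deposited description, counts are unscaled numbers of reads with at least 16 bases in a peak. The deposited seed codes and the authors' density over background are scores. The authors' IgG ratio is IgG over Ago peak height. Peak height (a signal) and the average coverage of a gene are the authors' values, not scaled for depth. The log2 fold changes and the p-values behind the false discovery rates of the authors' deposited table are their own.

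Counts were tested per peak and summed per gene with edgeR 4.0.16 (quasi-likelihood, TMM, filterByExpr with minimum count 10 and minimum total 15) in R 4.3.3, on the libraries of each comparison, with Benjamini-Hochberg adjustment over all features and a threshold of 0.05. SE values derive from the F statistic. DESeq2 1.42.0, limma-voom (limma 3.58.1), other library sizes, no filter and leaving out libraries or identical rows were alternatives. RPM values use all reads in peaks, and CPM values the tested reads after TMM. Exact 95% intervals cover counting error alone; the sources used here name no molecular identifiers. Scripts were tested on simulated data. Of the count columns, 0 lacked a sample. The named peaks are each member's most read peak and every peak passing the KO against WT filter; like genes are the 5 with the highest correlation. Peaks at deposited positions of seed matches or identical rows are also named. The members and lists were chosen with earlier results of these data known. RefSeq tables (GRCm38.p6) gave gene positions and sequences; a reference genome was not used here.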

Additional observations from a re-analysis of the deposited data

How the results depend on the processing

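No paired analysis was possible because the labels give no library number to more than 1 group. Of 101 alternative values for the counts of called members, 84 stayed within 1.5 times the reported count and 17 moved. Of the values for single genes and peaks, 356 kept direction and side of the threshold, 21 fell below it, 4 passed it and 11 reversed. For KO against WT in Ago libraries, the member peaks called were 0 under every alternative, and the member genes called were 0 to 2 when a library was left out. For Ago against IgG peaks, leaving out a library gave 2 to 5 calls in WT and 6 to 7 in KO; no filter gave 8 in KO; library sizes over all peaks with no TMM gave 0 in WT and 2 in KO. The 6 fits without an Ago library left no member peak to test. For Ago against IgG genes in WT, leaving out a library gave 0 to 2 calls, and DESeq2, no filter, leaving out identical rows and keeping peaks with an IgG ratio under 0.2 gave 0. In KO, no filter gave 1 and library sizes over all peaks with no TMM gave 1. Log2 values that reversed for KO against WT were the Serpina6 peak at 103646982 (-0.036 with no filter, -0.18 without WT library 1 and -0.09 without WT library 9, up to 0.28 with 1 library left out and 0.30 over all alternatives), the peak at 103651902 (-0.05 without KO library 12, -0.31 without WT library 1, up to 0.46 with 1 library left out and 0.53 over all), the peak at 103651824 (-0.10 without WT library 1, up to 0.52 with 1 library left out and 0.68 over all) and Serpina1e (-0.26 without KO library 13, up to 2.20 without WT library 10). For WT Ago against IgG, those with library sizes over all peaks and no TMM were the peaks at 103648636 (-0.42) and 103651902 (-0.69) and Serpina6 (0.27, and 0.31 with no filter). The cause of these changes was not tested. Depth limits the Serpina1 copies, whose single peaks hold at most 44 Ago reads.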
